A study of Mus musculus with 6 samples.

Results

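Ctla4 and 9 other genes known from regulatory T cells and from the checkpoint receptors of activated lymphocytes were described in RNA of mouse liver non-parenchymal cells. They are 10 of the 53546 genes in the count files and were found by their symbols. Ctla4 was chosen by its measured value, as it had one of the largest differences between genotypes in these libraries, and Foxp3, Il2ra, Icos, Tnfrsf18, Tnfrsf4, Pdcd1, Lag3, Tigit and Ikzf2 were named beside it with those results known. Levels and fold changes of the 10 genes are therefore given as a description, without a test of any of them.

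The cells came from livers of male mice, 3 wild type and 3 SRA-/-, a genotype named for scavenger receptor A, the macrophage receptor that Msr1 encodes. Every mouse of both groups had received acetaminophen, 400 mg/kg into the peritoneum, and cells were taken 6 h later, so no library shows an uninjured liver. Strain, age and the disrupted exon were not stated in the labels used here. Fold changes take wild type as the reference. The non-parenchymal fraction holds endothelial, stellate and Kupffer cells along with lymphocytes and other leukocytes, and it was sequenced whole.

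Regulatory T cells are CD4 T cells that restrain other lymphocytes, and the transcription factor Foxp3 defines them. They carry the interleukin 2 receptor alpha chain, encoded by Il2ra, and high levels of CTLA-4, a receptor that takes the ligands CD80 and CD86 away from the costimulatory receptor CD28. CTLA-4 is also induced on conventional T cells after activation, and several of the other receptors are found on activated T cells, natural killer cells or innate lymphoid cells, so these transcripts do not mark 1 cell type.

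Ctla4 lies on mouse chromosome 1 between the genes of its relatives Cd28 and Icos, and ends 62094 bases before Icos (mm39). Its gene model in the count files covers 60926159 to 60954991 on the plus strand with 7 merged exons and 2330 exonic bases. The first 3 exons, 397 bases or 17.0% of that length, lie apart from the others. Exons of these sizes belong to the transcript Ctla4-203 in the older GENCODE vM21 (GRCm38), which is annotated as a processed transcript, while the coding transcript Ctla4-201 starts at the next exon. A count summed over the gene does not show which of these exons the reads came from. The pseudogene Rpl18-ps1 lies inside the span of Ctla4 but shares 0 exonic bases with it. The nearest genes outside it, Gm38137 before and Gm11582 after, had 2 counts at most in any library. Other genes that overlap members without sharing exonic bases are Gm37881 in Il2ra, Gm37039 in Icos, and Gm29112 and Gm28112 in Ikzf2.

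The RefSeq table of promoter sequences (GRCm38.p6) held 7 of the 10 genes. The 250 bases before the start of Ctla4 (chr1:60908775-60909024, plus strand) are shown because Ctla4 is the gene that differed most, and those before the first listed start of Foxp3 (chrX:7579426-7579675, plus strand) because Foxp3 encodes the factor that defines the lineage. Capitals mark GGAAA or its reverse complement TTTCC, the core that NFAT factors, activated by the T cell receptor, bind.
Ctla4: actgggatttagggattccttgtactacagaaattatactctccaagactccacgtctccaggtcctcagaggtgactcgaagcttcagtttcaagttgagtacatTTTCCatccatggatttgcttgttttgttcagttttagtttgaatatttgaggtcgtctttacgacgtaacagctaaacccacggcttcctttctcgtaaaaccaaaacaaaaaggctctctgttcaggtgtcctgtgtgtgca
Foxp3: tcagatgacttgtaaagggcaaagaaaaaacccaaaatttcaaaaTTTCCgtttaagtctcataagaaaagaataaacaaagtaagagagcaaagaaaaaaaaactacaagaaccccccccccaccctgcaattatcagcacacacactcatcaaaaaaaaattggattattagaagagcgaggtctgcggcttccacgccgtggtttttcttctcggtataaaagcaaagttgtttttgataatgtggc

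Each of the 7 genes held this core at least once, as did 55.6% of all 32851 promoter windows of the same length. The forkhead site TGTTTAC or its reverse complement GTAAACA was in none of the 7 and in 3.17% of all windows. A TATA box (TATAAA or its reverse complement) was in the Foxp3 window and not in that of Ctla4, against 12.4% of all windows. A match is a stretch of letters and does not show binding, and a window without one says nothing of the factor elsewhere.

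Counts of the 10 genes were low. Libraries held 23757203 to 44003902 counts in all, of which the 10 genes together had 648 to 1402. A floor of 6 counts, which stands for 3 fragments with both mates counted, was equal to 0.136 to 0.253 CPM (counts scaled to library size) before TMM scaling. Only Ctla4 in wild type replicate 1 lay below it. CPM values below use library sizes scaled by edgeR's TMM factors.

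Ctla4 had 5, 10 and 9 counts in replicates 1, 2 and 3 of wild type, against 67, 41 and 57 in those of SRA-/-. These are 0.172, 0.380 and 0.266 CPM against 1.46, 1.37 and 2.59 CPM. Every SRA-/- library was above every wild type library, and the lowest SRA-/- value was that of replicate 2. The means were 0.273 ± 0.104 CPM and 1.80 ± 0.68 CPM (SD, n = 3 each), and the fitted log2 fold change was 2.71 ± 0.47 (SE). Pooled over libraries, the ratio was 6.26-fold with an exact Clopper-Pearson 95% interval of 3.38-fold to 12.5-fold, computed on halved counts. That interval covers counting error only. With 1 library left out the log2 fold change ran from 2.37 without SRA-/- replicate 3 to 2.996 without wild type replicate 2.

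Among the costimulatory relatives, Icos, a receptor of the CD28 family that supports activated T cells, had 73, 139 and 184 counts in wild type, against 309, 231 and 161 in SRA-/- libraries. At 2.51, 5.28 and 5.45 CPM against 6.72, 7.72 and 7.31 CPM the groups did not overlap, and wild type replicate 1 stood below the other two of its group. The log2 fold change was 0.71 ± 0.30 (SE), and 0.44 without wild type replicate 1. Tnfrsf4, which encodes OX40, had 0.962, 1.14 and 0.829 CPM in wild type, against 1.35, 1.64 and 1.27 CPM in SRA-/- libraries, again without overlap, from 28 to 62 counts per library. Its log2 fold change was 0.54 ± 0.33.

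Tnfrsf18, the gene of GITR, starts 9551 bases after the end of Tnfrsf4 on chromosome 4. It had 1.07, 1.44 and 0.799 CPM in wild type, against 0.892, 2.97 and 1.95 CPM in SRA-/- libraries. SRA-/- replicate 1 lay inside the wild type range and replicate 2 was highest. Its log2 fold change of 0.81 ± 0.47 was 0.34 without SRA-/- replicate 2 and 0.03 by limma-voom. Of its exonic bases 27.2% are shared with Gm16008 on the opposite strand, and reads in the shared part were left uncounted.

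The inhibitory receptors apart from Ctla4 overlapped between the groups. Pdcd1, which encodes PD-1, had 0.584, 1.18 and 1.36 CPM in wild type, against 2.07, 1.07 and 2.00 CPM in SRA-/- libraries, with SRA-/- replicate 2 inside the wild type range. Its log2 fold change was 0.71 ± 0.42, and 0.44 without wild type replicate 1. Lag3, whose product binds MHC class II, was the most counted of the 10 genes, at 353, 205 and 221 counts in wild type, against 416, 261 and 152 in SRA-/- libraries. Its highest level was 12.1 CPM in wild type replicate 1, and its log2 fold change was -0.10 ± 0.27, and 0.21 without that library. Tigit, whose product competes with the activating receptor CD226 for nectin ligands, ran from 2.82 to 3.34 CPM in wild type and from 3.14 to 3.59 CPM in SRA-/- libraries, with a log2 fold change of 0.15 ± 0.25.

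Libraries of both genotypes overlapped for the genes closest to regulatory T cell identity, Foxp3, Il2ra and Ikzf2. Foxp3 had 31, 53 and 78 counts in wild type, against 87, 82 and 21 in SRA-/- libraries. At 1.07, 2.01 and 2.31 CPM against 1.89, 2.74 and 0.953 CPM, both the highest and the lowest level were those of SRA-/- libraries. The log2 fold change was 0.06 ± 0.44, -0.19 with wild type replicate 1 left out and -0.30 with SRA-/- replicate 2 left out. Il2ra had 0.928, 0.797 and 0.503 CPM in wild type, against 0.609, 1.54 and 0.454 CPM in SRA-/- libraries, and likewise had its highest and lowest values in SRA-/- replicates 2 and 3. Its log2 fold change was 0.23 ± 0.53 and went to -0.45 without SRA-/- replicate 2. Ikzf2, which encodes Helios, an Ikaros family factor of thymus-derived regulatory T cells, ran from 2.16 to 2.90 CPM in wild type and from 2.77 to 2.87 CPM in SRA-/- libraries, with a log2 fold change of 0.16 ± 0.26, and shares 1.24% of its exonic bases with Gm29114 on the opposite strand. Of the exonic bases of Foxp3, 18.6% are shared with Flicr, a non-coding gene on the same strand, and others with Ppp1r3f, Gm36995 and Ccdc22 on the opposite strand, so its counts miss the reads there.

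**Figure D1:**
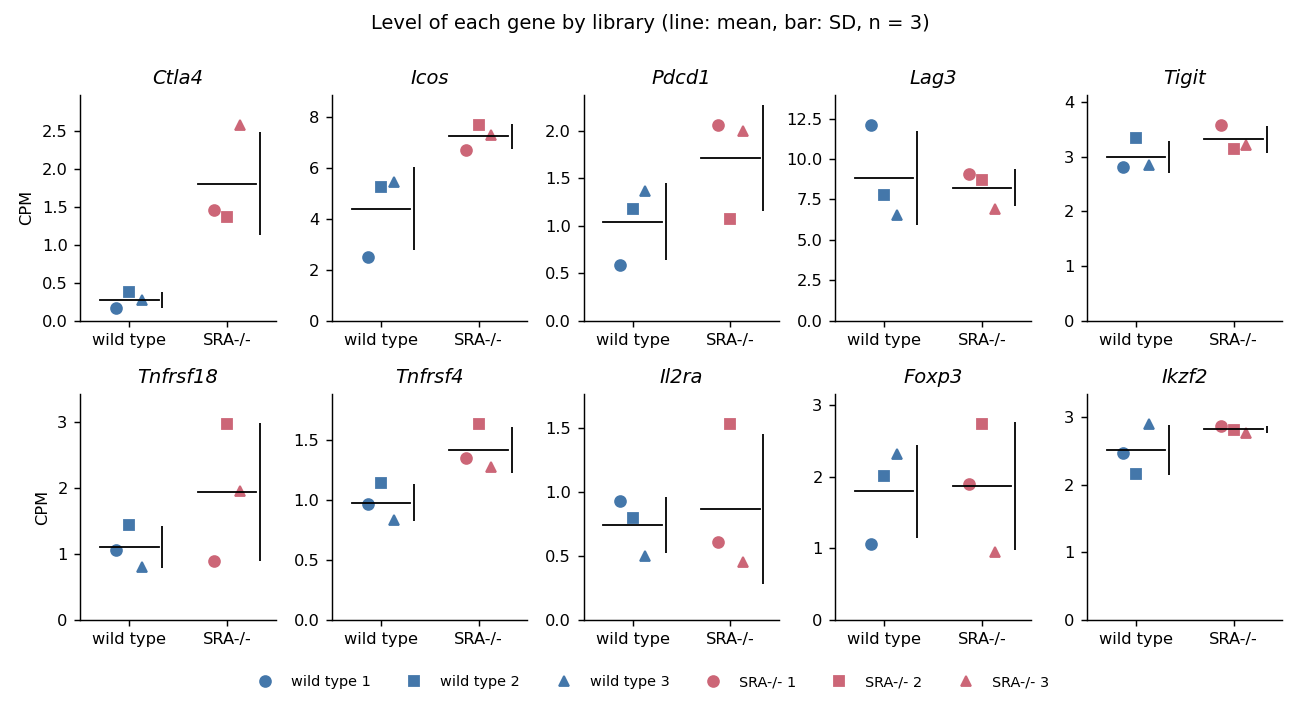
CPM (TMM-scaled) of each of the 10 genes on the y axis of its panel, by genotype on the x axis. Symbols are the 3 libraries of each group, lines are means and bars are SD. In the Ctla4 panel the SRA-/- libraries, at 1.37 to 2.59 CPM, all lie above the wild type libraries, and in the Foxp3 panel the groups overlap.

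Of the 10 genes, all passed the filter on low counts, 9 had log2 fold changes above 0, and the median was 0.39, against -0.01 over all 20541 genes tested. For the 9 genes without Ctla4 the median was 0.23, from -0.10 for Lag3 to 0.81 for Tnfrsf18. The number above 0 was 7 without SRA-/- replicate 2, 10 without SRA-/- replicate 3 and 9 with any other single library left out, and 8 by limma-voom. The median of the 10 was 0.26 without SRA-/- replicate 2, 0.55 without SRA-/- replicate 3 and 0.21 by limma-voom. Groups did not overlap, with SRA-/- higher, for 3 of the 10, Ctla4, Icos and Tnfrsf4, where this held for 3.97% of all genes tested. EdgeR (quasi-likelihood test, adjusted p under 0.05) called 0 of the 10, against 0.0487% of all genes. An unadjusted p under 0.05 was found for 2 of the 10 and for 661 of all 20541 genes, 477 of them higher and 184 lower in SRA-/- libraries. DESeq2 and limma-voom with quality weights each called 1, Ctla4, where they called 0.331% and 0.482% of all genes. EdgeR called Ctla4 when genes of low count were kept, among 32 of 35174 genes. Since the genes were picked with this contrast in view, nothing is read from these counts.

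Levels per kilobase of exon put Ctla4 last in wild type and higher up in SRA-/- libraries. In wild type the order was Lag3 at 4.18 ± 1.39 CPM per kilobase (SD, n = 3), Tigit, Icos, Tnfrsf18, Tnfrsf4, Pdcd1, Foxp3, Ikzf2, Il2ra and Ctla4 at 0.117 ± 0.045. In SRA-/- libraries Lag3 (3.90 ± 0.55) and Tigit (3.61 ± 0.26) were again at the top and Ctla4 was at place 7, at 0.775 ± 0.291 CPM per kilobase, before Foxp3 at 0.407 ± 0.195. Taking 1 SD to either side of each mean, neighbours overlapped except Tigit with Icos in both groups, Foxp3 with Ikzf2 and Ikzf2 with Il2ra in wild type, and Icos with Tnfrsf18 in SRA-/- libraries. Ctla4 thus did not stand apart from Il2ra in wild type, or from Pdcd1 and Foxp3 in SRA-/- libraries.

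In a mixture of cells, fewer cells of a type and less RNA per cell cannot be told apart. T cell transcripts were therefore set beside the 10 genes. Of 22 genes of the T cell receptor complex and its signalling, all 22 lay above 0 on the log2 fold change scale, the median being 0.59 against -0.01 over all genes tested, and 12 were higher in every SRA-/- library, where 3.97% of all genes were. By edgeR 0 of the 22 changed, the lowest adjusted p being 0.9999, and 6 had an unadjusted p under 0.05, beside 661 of all 20541 genes. The number above 0 was 20 of 22 without SRA-/- replicate 1 and 20 of 22 without SRA-/- replicate 2. Without both wild type replicate 1 and SRA-/- replicate 2, a pair chosen on measured expression, it was 20 of 21 with a median of 0.37.

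Lat, the adaptor that links the T cell receptor to its signalling chain, had the smallest p of the list, at 1.66 ± 0.74 CPM in wild type, against 3.67 ± 0.30 CPM in SRA-/- libraries (SD, n = 3 each). The log2 fold change was 1.13 ± 0.35, at adjusted p by edgeR of 0.9999. Cd6 had 0.85 ± 0.29, Bcl11b, a factor of T cell identity, 0.96 ± 0.36, and Tcf7, the most abundant of the list per length, 0.12 ± 0.22. Cd28 had 0.38 ± 0.27, Cd3e 0.44 ± 0.27 and Cd4 0.70 ± 0.29. These, and the values of list genes below given as ± with no unit, are log2 fold changes with their SE. None of the 22 had a log2 fold change as large as that of Ctla4. Ctla4 was chosen for its large difference, so this order is a description and nothing is read from it.

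**Figure D2:**
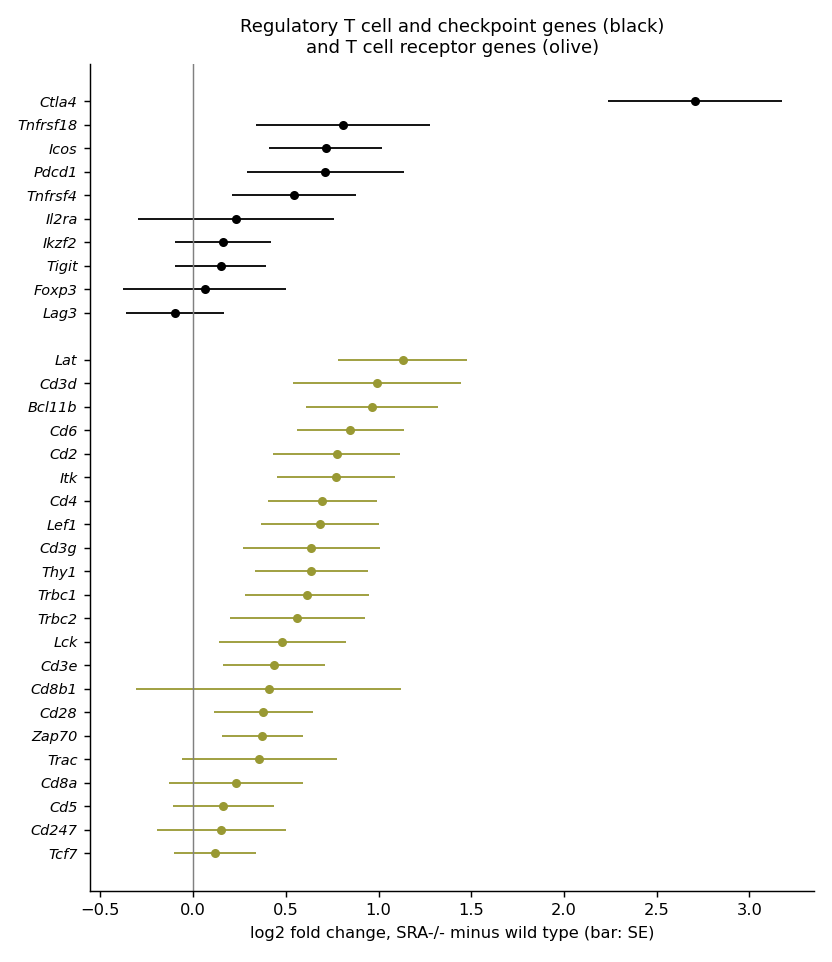
Log2 fold change of SRA-/- over wild type on the x axis, with bars for the SE of the fit, for the 10 genes (black) and 22 T cell receptor genes (olive). Ctla4, which was chosen for its large difference, lies at 2.71 to the right of all others, and the T cell genes lie between 0.12 and 1.13.

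Relative to T cell transcripts the contrast between Ctla4 and Foxp3 remained. Cd3e, Cd3d and Cd3g, the genes of 3 chains of the CD3 complex, had 98, 109 and 192 counts together in wild type, against 280, 212 and 155 in SRA-/- libraries. For every 100 of these counts Ctla4 had 5.10, 9.17 and 4.69 in wild type, against 23.9, 19.3 and 36.8 in SRA-/- libraries, without overlap. Foxp3 had 31.6, 48.6 and 40.6 against 31.1, 38.7 and 13.5, with overlap. Icos, which was higher in each SRA-/- library in CPM, overlapped on this scale at 74.5 to 128 against 104 to 110, and so did Tnfrsf4 at 14.6 to 28.6 against 18.1 to 23.1. Ikzf2 had 51.0 to 73.5 in wild type, against 39.4 to 47.1 in SRA-/- libraries, lower in each SRA-/- library. In CPM Ikzf2 overlapped, with a log2 fold change of 0.16 ± 0.26, while Cd3e, Cd3d and Cd3g were each higher in every SRA-/- library. A gene with a level CPM therefore falls on this scale. The scale was not applied to all genes, so no background share is given. On it the other genes overlapped between the groups.

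Set against Foxp3 itself, Ctla4 had 16.1, 18.9 and 11.5 counts per 100 counts of Foxp3 in wild type, against 77.0, 50.0 and 271 in SRA-/- libraries. The value of 271 in SRA-/- replicate 3 comes from 57 counts of Ctla4 and 21 of Foxp3. Per 100 counts of Cd28 Ctla4 had 5 to 10.4 in wild type, against 21.03 to 54.3 in SRA-/- libraries, and per 100 counts of Icos 4.89 to 7.19 against 17.7 to 35.4. Each of these scales uses the Ctla4 counts that chose the gene, so they describe the difference and add no test of it.

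**Figure D3:**
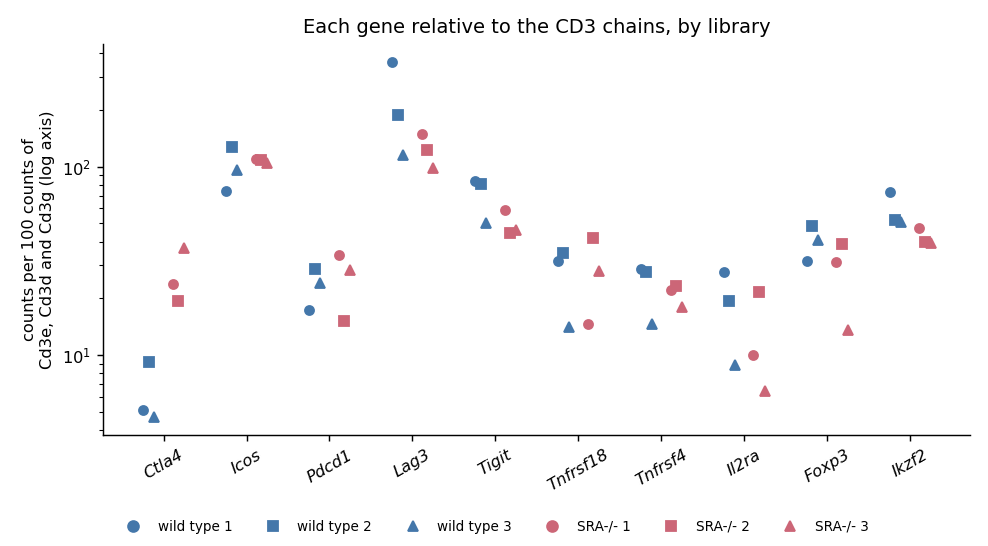
Counts of each of the 10 genes per 100 counts of Cd3e, Cd3d and Cd3g together, on a log y axis, by gene on the x axis. Symbols are libraries, wild type in blue and SRA-/- in red. Ctla4 runs from 4.69 to 9.17 in wild type and from 19.3 to 36.8 in SRA-/- libraries. Ikzf2 is the 1 gene with all SRA-/- libraries below wild type on this scale, and in CPM it overlaps.

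Markers of other cells also differed in level between the groups. The summed level of 9 T cell markers was 11.8 to 16.3 CPM in wild type, against 16.8 to 23.3 CPM in SRA-/- libraries. That of 6 B cell markers was 10.7 to 12.97 against 20.9 to 31.8 CPM, and that of 6 neutrophil markers 11.99 to 31.8 against 35.1 to 144 CPM, with no marker at 0 in all libraries. Single markers did not all follow their sums. Higher in every SRA-/- library were 5 of 6 B cell genes and 3 of 5 neutrophil genes tested, against 3.97% of all genes tested. Of the T cell markers, Cd3e, Cd3d, Cd3g, Trbc1 and Trbc2 were higher in every SRA-/- library, while Cd247, Trac, Cd4 and Cd8a overlapped. Transcripts of 10 pancreatic acinar genes, which do not belong to liver, summed to 434 to 836 CPM in wild type and to 4.55, 310 and 3.27 CPM in SRA-/- replicates 1, 2 and 3. In the same order these SRA-/- replicates had 113.9, 35.1 and 144 CPM of neutrophil markers and 1.46, 1.37 and 2.59 CPM of Ctla4. Replicate 2 was nearest to wild type in each of these, but in Ctla4 it lay close to replicate 1. In the T cell and B cell sums replicate 2 was instead the highest of all libraries, at 23.3 and 31.8 CPM. The part of pancreatic or neutrophil transcripts in the Ctla4 difference was not tested.

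Other marker sums overlapped between the groups. For 7 genes of group 2 innate lymphoid cells, nearly all from Rora, they were 235 to 279 against 224.7, 148 and 317 CPM. For 8 dendritic cell genes, with Zbtb46 the largest part, they were 43.7 to 50.9 against 42.9 to 53.0 CPM. For 7 genes of macrophages and Kupffer cells they were 419 to 960 against 602 to 1108 CPM. For 6 endothelial genes they were 1495 to 2918 against 1614 to 1921 CPM, for 6 stellate cell genes 508 to 696 against 434 to 776 CPM and for 7 hepatocyte genes 22218 to 70455 against 41396 to 85777 CPM. Such sums follow their most abundant genes. In the innate lymphoid list Gata3 (0.69 ± 0.33) and Il1rl1 (1.21 ± 0.47) were higher in every SRA-/- library, 2 of 5 tested. In the dendritic cell list Itgax and Ccr7 (0.97 ± 0.30) were higher in each, 2 of 8, and Zbtb46 (-0.34 ± 0.17) lower. Of all genes tested 3.97% were higher in every SRA-/- library. All 6 endothelial genes had log2 fold changes below 0, with a median of -0.25 against -0.01 over all genes tested. Among them Lyve1 (-1.09 ± 0.29) was lower in every SRA-/- library. Of 5 genes of basophils and mast cells, Mcpt8 was at 0 in every library and nearly all of the sum, 39.4 to 78.1 against 36.3 to 52.8 CPM, was Kit. Msr1 was counted in both genotypes, at 38.6 to 113.6 CPM in wild type, against 33.6 to 42.0 CPM in SRA-/- libraries, which overlap, and counts over a whole gene do not check a disruption whose exon is not given.

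**Figure D4:**
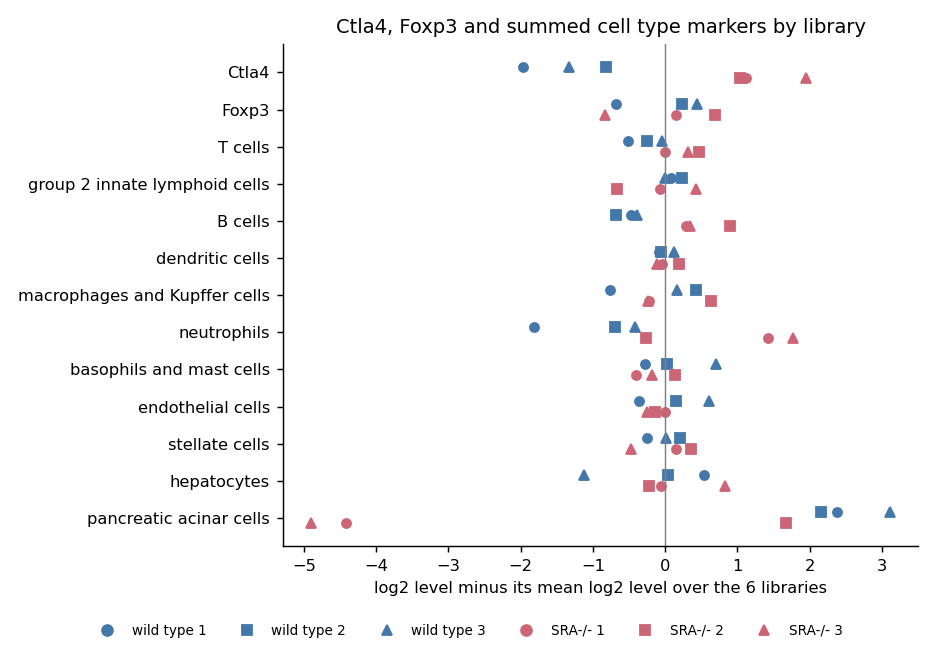
Log2 level of Ctla4, of Foxp3 and of the summed markers of each cell type in each library, as the difference from the mean log2 level over the 6 libraries (x axis). Ctla4 and the sums of T cell, B cell and neutrophil markers are higher in every SRA-/- library. The sum of pancreatic acinar markers is lower, and Foxp3 and the other marker sums overlap.

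The ligands of these receptors, carried mostly by antigen-presenting and tissue cells, were measured in the same RNA. Of 13 ligand genes 10 were tested, 8 above 0 with median 0.19 and 0 changed by edgeR (1 with an unadjusted p under 0.05). Without wild type replicate 1 it was 5 of 10 with a median of -0.01, and without wild type replicate 3 the median was 0.52. Cd80 and Cd86, the ligands of CTLA-4 and CD28, had log2 fold changes of 0.09 ± 0.29 and 0.25 ± 0.31, and Cd86 ran from 9.38 to 23.3 CPM in wild type and from 16.4 to 22.7 CPM in SRA-/- libraries. Fgl1, a ligand of LAG-3 made by hepatocytes, was the most abundant per length. It had 107, 115 and 104 CPM in wild type, against 145, 129 and 214 CPM in SRA-/- libraries, without overlap, and a log2 fold change of 0.58 ± 0.22, at adjusted p by edgeR of 0.9999. The PD-1 ligand gene Pdcd1lg2 had 4, 5 and 10 counts in wild type, against 21, 13 and 11 in SRA-/- libraries. The log2 fold change was 1.12 ± 0.52 with the same adjusted p, and the other, Cd274, had 0.38 ± 0.37. Lgals3, the gene of galectin-3, which binds LAG-3, had 0.45 ± 0.30. Tnfsf18, Tnfsf4 and Il2, the ligands of GITR, OX40 and the interleukin 2 receptor, were at or near 0, with 14 counts at most in any library, and were not tested.

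Of 11 genes of interleukin 2 receptor signalling, 7 were above 0 with a median of 0.05, and 0 changed by edgeR (1 with an unadjusted p under 0.05). Single libraries turned the direction: it was 3 of 11 (median -0.11) without wild type replicate 1, 5 of 11 (-0.08) without SRA-/- replicate 1 and 10 of 11 (0.30) without wild type replicate 3. Il2rb, the receptor's beta chain, which natural killer cells share, had 18.1 ± 2.5 CPM in wild type, against 27.9 ± 5.9 CPM in SRA-/- libraries (SD, n = 3 each). It was higher in every SRA-/- library, at a log2 fold change of 0.62 ± 0.21, at adjusted p by edgeR of 0.9999. Il2rg had 0.52 ± 0.37, Jak1 -0.11 ± 0.30 and Cish, a feedback inhibitor induced by STAT5, 0.22 ± 0.26.

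A list of 21 further genes known from regulatory T cells went both ways. Of 17 tested, 12 were above 0 and 5 below, with a median of 0.17 and 0 changed by edgeR, while 2 had an unadjusted p under 0.05 on either side. Without wild type replicate 1 it was 8 of 18 above 0 with a median of -0.11, and with SRA-/- library 2 removed too it was 6 of 16 and -0.17. Without wild type replicate 3 the median was 0.37. Tnfrsf1b, the receptor TNFR2, which many leukocytes and endothelial cells share, had 101, 96.3 and 77.5 CPM in wild type, against 164, 143 and 168 CPM in SRA-/- libraries. The groups did not overlap, and its log2 fold change was 0.79 ± 0.18 with adjusted p 0.675 by edgeR and 0.0314 by DESeq2. Satb1, a chromatin organiser of T cells, had 0.92 ± 0.29. Tnfrsf9, which encodes 4-1BB, went the other way at 76, 64 and 84 counts in wild type, against 78, 22 and 7 in SRA-/- libraries. It was lower in CPM in every SRA-/- library, with a log2 fold change of -1.39 ± 0.50 and edgeR adjusted p 0.9999. Il10, a cytokine that macrophages also make, had -0.64 ± 0.27.

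Of 14 other checkpoint and costimulatory receptors, 13 were tested, with 6 above 0, 7 below and a median of -0.06. By edgeR 0 changed and 1 in each direction had an unadjusted p under 0.05. Cd160 had 2.96, 3.57 and 4.17 CPM in wild type, against 2.35, 2.34 and 1.91 CPM in SRA-/- libraries, with a log2 fold change of -0.69 ± 0.27. Btla, an inhibitory receptor of B and T cells, had 0.53 ± 0.24, with higher values in each SRA-/- library, Cd244a 1.08 ± 0.46 and Vsir, the most abundant per length, -0.16 ± 0.23.

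Of 15 genes of effector T cells and natural killer cells, 13 were tested, 8 above and 5 below 0 with a median of 0.28, and none was apart between the groups. By edgeR 0 changed, with 0 at an unadjusted p under 0.05, and DESeq2 and limma-voom also called 0. The median was 0.04 without SRA-/- replicate 2, 0.46 without SRA-/- replicate 1 and 0.06 by limma-voom. Ccl5, a chemokine of cytotoxic lymphocytes, had 0.59 ± 0.28, Klrd1 0.75 ± 0.48 and Gzma, which encodes granzyme A, -0.57 ± 0.36. Of 16 genes of factors that act on Foxp3 or Ctla4, 10 were above 0 with a median of 0.07, 0 changed by edgeR and 1 had an unadjusted p under 0.05. Without wild type replicate 1 it was 8 of 16 with a median of -0.01. The gene under 0.05 was Nr4a1, induced by antigen receptor signalling among other stimuli and the most abundant of the list per length, at 270.4 ± 24.0 CPM in wild type, against 367 ± 23 CPM in SRA-/- libraries (SD, n = 3 each). It was higher in every SRA-/- library, with a log2 fold change of 0.44 ± 0.19 and edgeR adjusted p 0.9999. Nfatc1 had 0.24 ± 0.16 and Nfatc2 0.32 ± 0.27.

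Among the 17 lists, which hold 163 tested genes, edgeR called 0. Unadjusted p was under 0.05 for 25 with higher and 4 with lower levels in SRA-/- libraries, where all 20541 genes also leaned to higher levels, 477 against 184, and DESeq2 called 7 and limma-voom 16. By DESeq2 these were Tnfrsf1b, the B cell gene Cd79a, Itgax, which encodes the integrin CD11c, and the neutrophil genes S100a8, S100a9, Retnlg and Csf3r. By limma-voom they were Lat, Satb1, Tnfrsf1b, Itgax, S100a8 and the B cell gene Pax5, all higher in SRA-/- libraries. Lower were the endothelial gene Lyve1 and 9 of the 10 pancreatic genes. Itgax had 2.69 ± 0.36 CPM in wild type, against 6.33 ± 0.73 CPM in SRA-/- libraries (SD, n = 3 each). The log2 fold change was 1.24 ± 0.24 with adjusted p 0.438 by edgeR and 0.00234 by DESeq2.

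Over the 6 libraries the genes whose log2 CPM ran most like that of Ctla4, among 16218 with a mean of at least 1 CPM, were Kcnn4 (Pearson r 0.99), Gm18948, Plp2, H2-Q7, Nrg1, Dgat1, Sycp1 and Lacc1 (r 0.97). Sycp1, a gene of meiotic chromosomes, had 0 counts in each wild type library and 88, 56 and 80 in the SRA-/- ones. All 8 were higher in every SRA-/- library, so the points share the split by genotype, and r is given as a description over 6 libraries. Kcnn4, a calcium-activated potassium channel of lymphocytes and other cells, had 0.928, 1.14 and 1.10 CPM in wild type, against 1.57, 1.70 and 1.86 CPM in SRA-/- libraries. H2-Q7, an MHC class I gene with close relatives that can share its reads, had 4.37 ± 0.30 against 6.38 ± 0.17 CPM (SD, n = 3 each). Nrg1 had 117, 250 and 290 counts in wild type, against 1066, 647 and 968 in SRA-/- libraries, and like Ctla4 was lowest in wild type replicate 1 and highest in CPM in SRA-/- replicate 3. Of the other 9 genes, Icos had an r of 0.82 with Ctla4, Tnfrsf4 0.79, Pdcd1 0.74, Tigit 0.66, Tnfrsf18 0.55 and Ikzf2 0.46. Foxp3 had -0.07, Il2ra -0.11 and Lag3 -0.32. The T cell genes Cd4 and Cd3e each had 0.83.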

How the data were processed

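Total RNA libraries of 6 samples were grouped by their titles, which call the replicates biological. P-values measure the spread between these samples. The authors summed exonic reads for each gene symbol, using featureCounts 2.0.2 and the GENCODE vM26 annotation, per the file headers. The command has the paired-end flag and no strand setting. Per the submitters' processing notes STAR was used with build mm39. The deposited values are these raw counts, not normalized. In this version the flag alone leaves mates counted separately, and 68.5% to 71.9% of counts from 1 to 4 were even. Reads over several genes were not counted, which lowers genes that share exonic bases, as Foxp3 and Tnfrsf18 do.

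Counts were analysed with edgeR 4.0.16 in R 4.3.3 (filterByExpr, TMM, glmQLFit with robust estimation, group alone), and p-values were adjusted by Benjamini-Hochberg over 20541 tested genes, with a threshold of 0.05. The SE is the fold change over the root of its F value. No pair of libraries was a repeat (chi-square over degrees of freedom at least 27.5). With 3 against 3 libraries an exact permutation test of 1 value cannot give a two-sided p below 0.1, so none was used. Alternatives were DESeq2 1.42.0 and its size factors, limma-voom (limma 3.58.1), library totals, 2 other filters, halved counts, a replicate block and each library left out.

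The members and the 17 gene lists were chosen with earlier results of these data known. Named from each of the 7 pathway lists were the 3 tested genes with the smallest p, the most abundant per length and any past the threshold, and for Ctla4 the 8 genes most correlated with it. Genes overlapping a member and the nearest ones to Ctla4 were named too. Marker lists are given as sums, and their genes (Itgax, Ccr7, Zbtb46, Gata3, Il1rl1, Cd79a, Pax5, Lyve1 and the neutrophil genes, Rora, Kit, Mcpt8) were named after values were seen. Other list genes named (Cd28, the T cell markers, Cd80, Cd86, Cd274, Il10, and the ligands near 0) were added for their role after values were seen. Removing wild type replicate 1 with SRA-/- replicate 2 was also chosen after seeing the data.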

Additional observations from a re-analysis of the deposited data

How the results depend on the processing

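The log2 fold change of Ctla4 stayed above 0 under all 15 alternatives. It moved by more than the spread between replicates under 1, limma-voom with quality weights, at 2.19, and ran from 2.37 to 2.996 with 1 library left out. The number of tested genes past the threshold was 68 by DESeq2, 99 by limma-voom, 32 with no filter on low counts, 3 to 40 with 1 library left out and 101 with wild type library 1 and SRA-/- library 2 both removed, against 10. Among the 10 members, 1 was past it by DESeq2, 1 by limma-voom and 1 with no filter, in each case Ctla4, and 0 under the other 12 alternatives. Of all genes 0.331%, 0.482% and 32 of 35174 were past it in these 3 settings. Ctla4 was picked for its value in this contrast, so nothing is read from these calls. Of the listed genes 7 were past the threshold by DESeq2, 16 by limma-voom, 1 (S100a8) with no filter, 0 to 12 with 1 library left out (12 without SRA-/- replicate 2, of which 10 were pancreatic genes) and 15 without the pair of libraries. With the replicate number as a block, 5 genes were past the threshold and 0 members. Shared replicate numbers gave no sign of a pairing, as deviations from the group means of same-numbered libraries correlated at -0.38, -0.19 and -0.20 across 16219 genes. Deviations within a group sum to 0, so this check cannot exclude a pairing. Signs of Foxp3, Il2ra and Lag3 turned with single libraries and by limma-voom, at -0.16, -0.16 and 0.09. By limma-voom Tnfrsf18 (0.03), Tnfrsf4 (0.34) and Ikzf2 (0.32) also moved by more than the spread between replicates. Il2ra did not pass the filter of 1 CPM in 3 libraries. The wild type level of Ctla4 rests on 24 counts over the group.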
